A study of Mus musculus with 9 samples.

Results

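Histone lysine methyltransferases and demethylases are the enzymes that add methyl groups to the lysines of histone tails and take them off again. The family was read out of the RNA-Seq gene counts of MyC-CaP, a mouse prostate cancer cell line that came from a tumor of a mouse with a MYC transgene. Members were chosen by name: every gene called Setd (with a number or b), Kmt, Kdm, Ehmt1 or Ehmt2, Nsd, Suv39h, Ezh1 or Ezh2. The rule found 44 of the 15384 genes in the table, 27 with a methyltransferase name and 17 with a demethylase (Kdm) name. The family was picked with earlier results of the same 9 libraries known, so its values are a description of these libraries and not an independent test.

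The 9 libraries fall into 3 groups of 3, collected 0, 12 and 24 hours after the addition of recombinant mouse ASPN (asporin, a small proteoglycan that stromal fibroblasts secrete). All of them are labeled as treated with ASPN, also those of 0 hours, which are called time 0 here. Serum and calcium were withheld from all cells beforehand, and the dose was 100 ng/mL. No library of cells kept for 12 or 24 hours without ASPN is among the 9, so the treatment and the hours in culture cannot be told apart. The labels call the libraries biological replicates, and nothing says that they came from separately grown cultures beyond separate wells, so p-values measure the spread between these samples.

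The libraries held 41881191 to 52993821 counts each, and 3 counts corresponded to 0.0566 to 0.0716 CPM, the count scaled to the depth of its library. All CPM values here are scaled with TMM factors (which set libraries to the same level over most genes), with the factors of the 6 earlier libraries at 1.04 to 1.07 and those of the 3 at 24 hours at 0.898 to 0.911. The epithelial origin was not matched by all of its markers, since Krt8 read 25.5, 26.4 and 38.1 CPM at the 3 times, whereas Krt18, Epcam and Cdh1 stayed at or below 0.414 CPM. Of 4 fibroblast markers, Pdgfra alone was over 1 CPM (13.2 CPM at time 0, 9.27 CPM at 24 hours), and none of the 3 immune and 2 endothelial markers was.

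Lysine methylation on histone H3 and H4 marks chromatin states. Methylation of H3 lysine 4 (H3K4) goes with promoters and enhancers, that of H3K36 with transcribed gene bodies, and that of H3K9, H3K27 and H4K20 mostly with silent or compact chromatin. Methyltransferases with a SET domain take the methyl group from S-adenosylmethionine, and demethylases remove it through flavin (the LSD family) or through iron and 2-oxoglutarate (the JmjC family). In prostate cancer EZH2, the catalytic subunit of Polycomb repressive complex 2 (PRC2), and the demethylase LSD1 are known drug targets.

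Of the 44 members, 43 had enough counts to be tested in each comparison. Kdm4d, a demethylase of H3K9 known mainly from testis, had 0 to 4 counts per library and was not tested. Setd9 and Kdm5d were not analysed here. A gene was called when edgeR's quasi-likelihood test gave an adjusted p (Benjamini-Hochberg, over all tested genes) not above 0.05 and the fold change was at least 1.5. Per kilobase of annotated exon, which allows genes to be compared, the median member stood at 7.01 CPM per kilobase at time 0, 7.16 at 12 hours and 5.55 at 24 hours. Ehmt2 (43.2 ± 1.6 CPM per kilobase, SD, n = 3) and Kmt5a (38.3 ± 0.84) were the most abundant at time 0, followed by Kdm5c (31.2 ± 0.35) and Kdm1a (21.6 ± 0.30), each apart from the next by more than the SDs. At 24 hours the order at the top was Kmt5a (49.3 ± 1.0), Ehmt2 (48.4 ± 2.4) and Kdm1a (26.5 ± 0.85), of which the first pair differed by less than the SD of Ehmt2. The lowest of the tested members at time 0 were Nsd1 (0.0562 ± 0.0060 CPM per kilobase) and Setd4 (0.545 ± 0.045).

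At 12 hours no member was called as higher or lower than at time 0. By comparison, 1.6% of the 11410 genes tested were called. The members had a median log2 fold change of 0.01, and that of all tested genes −0.0049. DESeq2's Wald test (1.55% of all tested genes called) and limma-voom (1.58%) also called 0 members, and 10 of the 43 had an unadjusted p under 0.05 in edgeR's test, beside 21.4% of all tested genes. By the adjusted p alone, which 10.3% of all tested genes passed, 3 members differed from time 0. These were Nsd3, a methyltransferase of H3K36 (92.9 ± 1.4 CPM at time 0, 101 ± 1.5 at 12 hours, log2 fold change 0.13 ± 0.03 SE, adjusted p = 0.017, edgeR), Setd5, a SET domain protein of debated activity (139 ± 2.8 and 150 ± 2.7 CPM, 0.11 ± 0.03, adjusted p = 0.045), and Setd1b, an H3K4 methyltransferase (87.2 ± 1.7 and 78.6 ± 2.7 CPM, −0.15 ± 0.04, adjusted p = 0.013). With all 9 libraries in one fit only Setd1b passed, with the replicate number as a block Nsd3 and Setd1b did, and with 1 library left out the highest adjusted p was 0.107 for Nsd3, 0.190 for Setd5 and 0.0886 for Setd1b (edgeR). The 3 libraries of 12 hours did not overlap those of time 0 for 11 members, 7 of them higher and 4 lower. Of all tested genes 27.1% did not overlap, 13.7% higher and 13.4% lower. The log2 fold changes of all tested members lay between −0.52 (Nsd1) and 0.14 (Kdm6b).

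At 24 hours 15 of the 43 tested members were called, 2 of them higher and 13 lower than at time 0. The share is 34.9%, beside 28.8% of the 11444 genes tested, of which 12% were higher and 16.8% lower. With a correction for exon length and GC content, given further on, 6 of the 43 were called, beside 26%, so the share went from above to below that of all genes. Ezh2 and Nsd1 rose, and Setd1b, Kmt2d, Kdm2b, Kmt5b, Kmt2b, Kdm5c, Setd4, Setd1a, Ehmt1, Kdm6b, Kmt2c, Kdm3b and Kmt2a fell. Among genes with a methyltransferase name 9 of 27 fell and 2 rose, and among the 16 tested Kdm genes 4 fell and none rose. The median log2 fold change was −0.25 over the members and −0.02 over all tested genes. Taken over all members together, the summed level was 3374 ± 69 CPM at time 0, 3416 ± 14 CPM at 12 hours and 2941 ± 9.4 CPM at 24 hours (SD, n = 3). In bulk RNA fewer cells of a kind and less RNA per cell cannot be told apart.

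**Figure D1:**
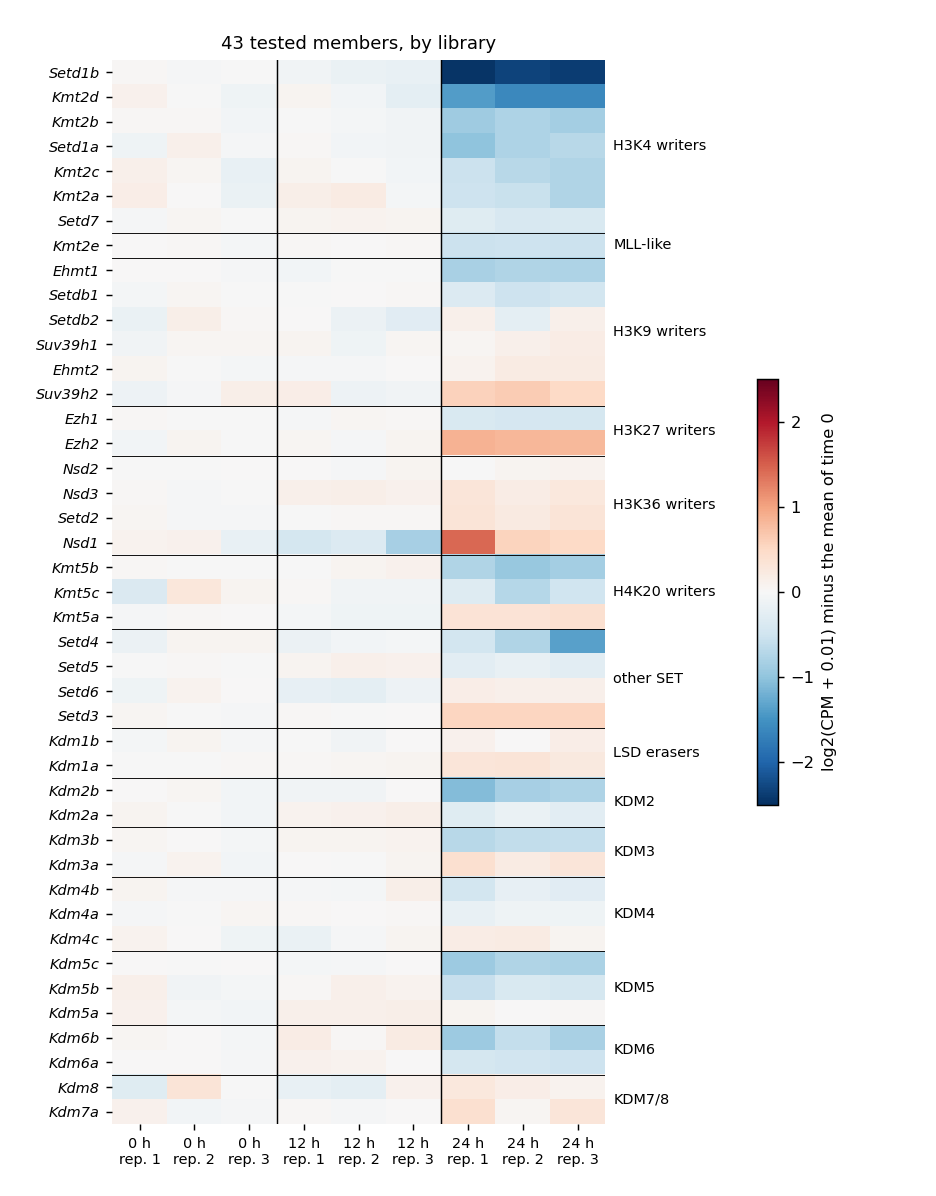
Each row is 1 of the 43 tested members, grouped by class, and each column is 1 of the 9 libraries. Color gives the difference of log2(CPM + 0.01) from the mean of the 3 libraries of time 0, from blue (lower) to red (higher). The 12-hour columns stay pale apart from Nsd1, and in the 24-hour columns the H3K4 writers are blue in all 3 libraries while Ezh2 is red.

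Against 12 hours the counts of called members were close to those against time 0. Relative to 12 hours 16 members were called at 24 hours, 3 higher (Ezh2, Nsd1 and Suv39h2) and 13 lower, with log2 fold changes of 0.60 to 1.42 and of −2.21 to −0.64. Of the 11394 genes tested, 25.7% were called in this comparison. With the length and GC correction 7 of the 43 were called, beside 22.5%, so here too the share went from above to below that of all genes. By the adjusted p alone 37 members differed, beside 71.3% of all tested genes. The median over the members was −0.31, and that over all tested genes 0.0039. Both comparisons use the same 3 libraries of 24 hours and are not independent of each other. Library by library, the median difference of the members from the mean of time 0 was −0.02 to 0.02 on the log2 scale in those of time 0 and of 12 hours, and −0.29, −0.20 and −0.27 in the 3 of 24 hours.

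The methyltransferases of H3K4 held the largest decreases of the family. Mammals have 6 enzymes of the SET1/MLL type, which work in complexes named COMPASS. Setd1a and Setd1b carry out most H3K4 trimethylation at promoters, Kmt2a (MLL1) and Kmt2b (MLL2) act at selected promoters, and Kmt2c (MLL3) and Kmt2d (MLL4) place monomethylation at enhancers. All 6 were called lower at 24 hours, where 16.8% of all tested genes were, and with the length and GC correction Setd1b and Kmt2d alone of them were called. Setd7, an unrelated monomethylase, passed the adjusted p but not the fold (133 ± 4.0 CPM at time 0, 140 ± 0.81 at 12 hours, 104 ± 4.1 at 24 hours, log2 fold change −0.36 ± 0.04 SE). The median of the 7 was −0.82.

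Setd1b (chr5:123142193-123168629 on the plus strand, GRCm38) changed most. It read 89.2, 85.9 and 86.5 CPM in the libraries of time 0, 81.7, 77.4 and 76.8 CPM at 12 hours, and 15.9, 17.5 and 16.9 CPM at 24 hours. The 12-hour libraries lay a little below those of time 0, and the 24-hour ones far below both, with no overlap between any of the groups. The level at 24 hours was 5.2-fold lower than at time 0 (log2 fold change −2.38 ± 0.05 SE, adjusted p = 1.2e-12, edgeR). Its paralog Setd1a read 33.7, 39.5 and 35.7 CPM at time 0, 36.9, 34.4 and 34.0 CPM at 12 hours, and 18.1, 21.2 and 22.5 CPM at 24 hours, which was 1.76-fold lower (−0.82 ± 0.08 SE, adjusted p = 1.0e-06). Setd1a's counts are uncertain, since 51.9% of its exon length lies under Gm49388, another gene on the same strand.

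Kmt2d (chr15:98831669-98871204 on the minus strand), an MLL-type gene often mutated in cancers, was the next in size. It read 167, 156 and 145 CPM at time 0, 163, 149 and 131 CPM at 12 hours, and 59.5, 50.8 and 51.2 CPM at 24 hours. The first 2 groups overlapped, and the 24-hour libraries stood apart, 2.9-fold lower than time 0 (−1.54 ± 0.07 SE, adjusted p = 4.7e-10). With the length and GC correction the log2 fold change was −0.76 and still called. Its closest relative Kmt2c read 65.2, 61.7 and 52.7 CPM at time 0, 62.6, 58.9 and 57.1 CPM at 12 hours, and 41.1, 36.7 and 35.2 CPM at 24 hours. That was 1.59-fold lower (−0.67 ± 0.08 SE, adjusted p = 4.4e-06), and without replicate 1 of time 0 the log2 fold change of Kmt2c was −0.58, just under 1.5-fold.

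Kmt2b read 99.3, 99.1 and 92.5 CPM at time 0, 96.1, 94.2 and 91.8 CPM at 12 hours, and 52.0, 57.0 and 53.5 CPM at 24 hours. The drop was 1.79-fold (−0.84 ± 0.05 SE, adjusted p = 6.4e-09), with the early groups overlapping each other and not the late one. Kmt2a read 101, 89.5 and 79.4 CPM at time 0, 99.1, 103 and 86.7 CPM at 12 hours, and 62.3, 60.8 and 53.2 CPM at 24 hours. At 1.53-fold lower it was the member nearest inside the fold threshold (−0.61 ± 0.08 SE, adjusted p = 1.2e-05). Without replicate 1 of time 0 its log2 fold change was −0.50, and without replicate 3 of 24 hours it was −0.54, both past the adjusted p but under 1.5-fold. Kmt2e, an MLL-like protein with no known histone methyltransferase activity, lay just outside the threshold (157 ± 4.4, 159 ± 1.4 and 109 ± 1.1 CPM at the 3 times, −0.53 ± 0.04 SE).

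The sequences before the start sites of the enhancer enzymes Kmt2d and Kmt2c are shown because the pair fell by different amounts. They are RefSeq promoter windows (GRCm38.p6), Kmt2d at chr15:98871206-98871455 and Kmt2c at chr5:25498784-25499033, both on the minus strand, with matches to the GC box (GGGCGG on either strand, overlaps counted) in capitals.
Kmt2d: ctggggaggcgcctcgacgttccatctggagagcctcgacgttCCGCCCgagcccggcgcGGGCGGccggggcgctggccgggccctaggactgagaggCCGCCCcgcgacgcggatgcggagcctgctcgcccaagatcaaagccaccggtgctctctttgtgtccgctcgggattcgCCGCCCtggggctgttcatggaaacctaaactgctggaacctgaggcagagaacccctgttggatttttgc
Kmt2c: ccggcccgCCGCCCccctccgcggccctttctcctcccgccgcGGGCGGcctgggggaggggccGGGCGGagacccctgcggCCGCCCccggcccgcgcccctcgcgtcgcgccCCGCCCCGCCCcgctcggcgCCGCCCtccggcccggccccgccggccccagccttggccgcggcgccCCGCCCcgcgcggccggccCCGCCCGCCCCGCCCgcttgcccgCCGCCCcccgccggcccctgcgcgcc
The Kmt2d stretch holds 4 such matches and 26 CpG dinucleotides in 250 bases, and that of Kmt2c 12 matches and 48 CpG. Of the 44 members, 33 had a window in the table, 45 windows in all. A GC box was in 64.4% of these and in 32.7% of all 32851 windows, and the median number of CpG was 21 and 6. The match is a description of these letters and says nothing about binding.

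Demethylation of H3K4 is the task of Kdm1a and Kdm1b (LSD1 and LSD2), which remove mono- and dimethylation, and of the Kdm5 enzymes, which also remove trimethylation. Kdm5c, an X-linked gene, was called lower. It read 222, 219 and 224 CPM at time 0, 216, 217 and 223 CPM at 12 hours, and 118, 131 and 128 CPM at 24 hours. All 24-hour libraries were below all others, and the level was 1.77-fold lower than at time 0 (−0.82 ± 0.05 SE, adjusted p = 3.6e-09, edgeR), or −0.50 and not called with the length and GC correction. Kdm5b, known as overexpressed in prostate and breast cancer, read 112, 95.6 and 99.3 CPM at time 0, 104, 111 and 109 CPM at 12 hours, and 68.7, 78.8 and 75.6 CPM at 24 hours. It was 1.37-fold lower (−0.46 ± 0.06 SE, adjusted p = 2.3e-05) and not called, although with total-count scaling it was. Over the alternative settings its log2 fold change ran from −0.68 to −0.26.

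Kdm5a stood at 95.5 ± 6.4 CPM at time 0 and 97.6 ± 1.7 CPM at 24 hours, with overlapping libraries and a log2 fold change of 0.03 ± 0.05 SE (−0.19 with total-count scaling). Kdm1a, the LSD1 gene, read 111, 112 and 114 CPM at time 0, 115, 116 and 117 CPM at 12 hours, and 138, 141 and 132 CPM at 24 hours. The 3 groups did not overlap, and the level at 24 hours was 1.22-fold that of time 0 (0.29 ± 0.04 SE, adjusted p = 2.7e-05), below the threshold of fold and 0.07 with total-count scaling. Kdm1b had 24.2 ± 1.1 and 25.9 ± 1.4 CPM (0.10 ± 0.06 SE, adjusted p = 0.19, −0.13 with total-count scaling). Thus 6 of the 7 H3K4 methyltransferases and 1 of the 5 tested H3K4 demethylases were called lower, beside 16.8% of all tested genes, and none of either was called higher. With the length and GC correction 2 of the 7 (Kmt2d and Setd1b) and 0 of the 5 were called lower, beside 14.1% of all tested genes.

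**Figure D2:**
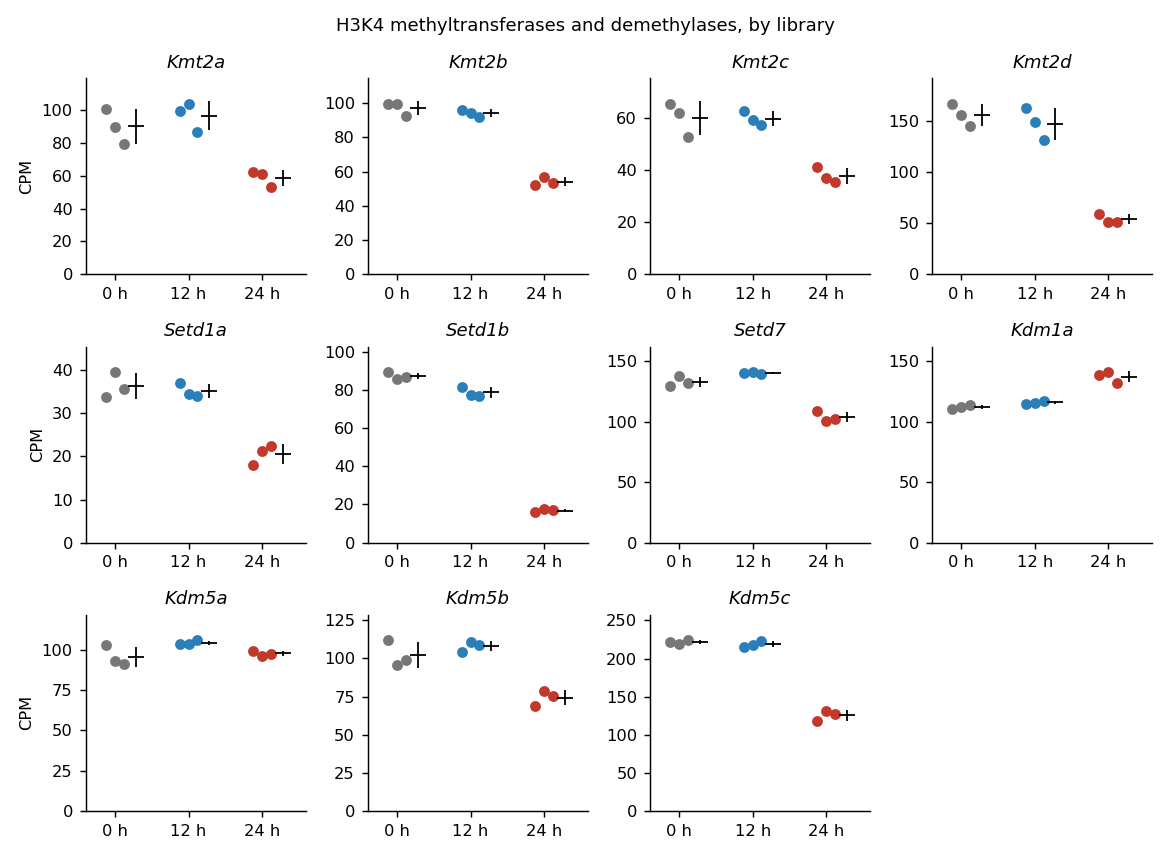
CPM of the 7 H3K4 methyltransferases and 4 of the H3K4 demethylases in each library (dots, in order of replicate), at 0, 12 and 24 hours, with the mean and SD of the 3 libraries beside them. In the 6 SET1/MLL genes and in Kdm5c, the 24-hour dots lie well under the others (Setd1b 15.9 to 17.5 CPM), while Kdm1a runs from 111 to 141 CPM.

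Methylation of H3K27 is placed by PRC2 with Ezh2 or Ezh1 as its catalytic subunit, Ezh2 being typical of dividing cells and Ezh1 of resting ones. Ezh2 (chr6:47530139-47595341 on the minus strand) rose. It read 44.8, 49.1 and 46.6 CPM at time 0, 48.4, 45.8 and 49.3 CPM at 12 hours, and 85.4, 82.6 and 81.8 CPM at 24 hours. The first 2 groups overlapped, and the 24-hour libraries were all above them, at 1.78-fold the level of time 0 (0.83 ± 0.05 SE, adjusted p = 4.7e-09, edgeR). Ezh1 read 55.7, 54.4 and 54.3 CPM at time 0, 54.0, 56.6 and 55.9 CPM at 12 hours, and 42.3, 41.1 and 40.5 CPM at 24 hours, 1.33-fold lower (−0.41 ± 0.05 SE, adjusted p = 3.1e-06) and not called. Per kilobase of exon the pair stood close at time 0, Ezh2 at 7.01 ± 0.32 and Ezh1 at 7.37 ± 0.11 CPM per kilobase, and apart at 24 hours, at 12.5 ± 0.29 and 5.55 ± 0.12.

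Bases before a RefSeq start site of each are given because the fitted log2 fold changes of the pair had opposite signs. The RefSeq windows (GRCm38.p6) are shown where no annotated exon lies, Ezh2 at chr6:47595059-47595183 and Ezh1 at chr11:101226464-101226713, both on the minus strand, and capitals mark the CCAAT box (CCAAT on either strand).
Ezh2: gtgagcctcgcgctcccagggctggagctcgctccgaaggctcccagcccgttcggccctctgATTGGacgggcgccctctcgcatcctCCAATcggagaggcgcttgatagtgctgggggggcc
Ezh1: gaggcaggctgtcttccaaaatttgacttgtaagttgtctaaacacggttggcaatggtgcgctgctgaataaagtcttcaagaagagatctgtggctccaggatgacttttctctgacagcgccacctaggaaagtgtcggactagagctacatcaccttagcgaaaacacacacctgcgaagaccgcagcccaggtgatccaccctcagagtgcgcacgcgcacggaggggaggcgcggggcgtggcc
The Ezh2 stretch lies before its RefSeq start but within the gene as annotated in the table, which begins farther upstream. It holds 2 such boxes in 125 bases and that of Ezh1 none in 250, and neither holds a GC box. A CCAAT box was in 42.2% of the windows of members and in 33.8% of all windows.

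The demethylases of H3K27 are Kdm6a (UTX), which is also a subunit of the Kmt2c and Kmt2d complexes, and Kdm6b (JMJD3), known as inducible by stress and inflammation. Kdm6b was called lower. It read 54.8, 53.2 and 51.0 CPM at time 0, 60.1, 54.1 and 61.1 CPM at 12 hours, and 28.4, 35.0 and 30.3 CPM at 24 hours, 1.7-fold below time 0 (−0.76 ± 0.07 SE, adjusted p = 4.1e-07), or −0.35 and not called with the length and GC correction. Kdm6a read 38.0, 38.0 and 36.8 CPM at time 0, 40.8, 40.0 and 37.9 CPM at 12 hours, and 27.7, 27.1 and 26.1 CPM at 24 hours. Its 24-hour libraries lay below all others, at 1.39-fold under time 0 (−0.48 ± 0.05 SE, adjusted p = 2.4e-06), which did not reach the threshold. So at 24 hours Ezh2 was higher, and Ezh1 and both Kdm6 genes had values below those of time 0, of which that of Kdm6b was called. With total-count scaling Ezh1 (−0.63) and Kdm6a (−0.70) were called as well. Over the alternative settings Ezh1 ran from −0.63 to −0.23 and Kdm6a from −0.70 to −0.37.

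**Figure D3:**
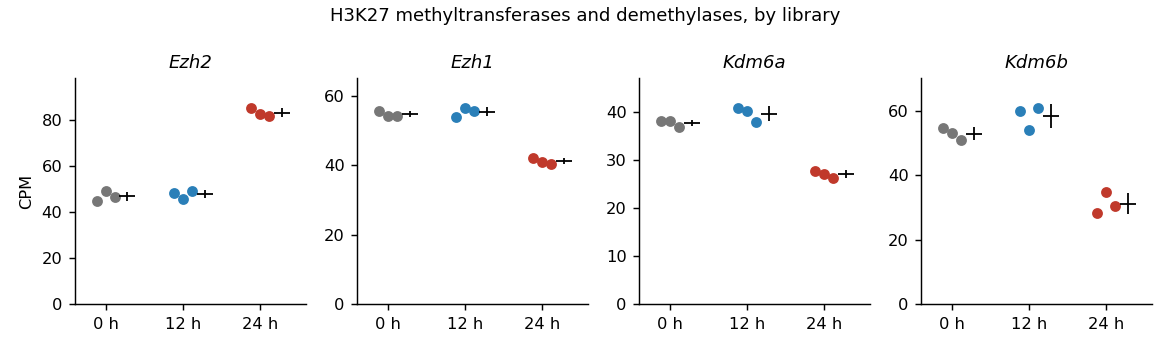
CPM of the H3K27 methyltransferases Ezh2 and Ezh1 and the demethylases Kdm6a and Kdm6b in each library (dots), at 0, 12 and 24 hours, with the mean and SD of 3 libraries. Ezh2 sits at 81.8 to 85.4 CPM at 24 hours against 44.8 to 49.3 CPM before, while the dots of the other genes are lower at 24 hours.

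Among the H3K9 methyltransferases 1 of 6 was called, and called lower, beside 16.8% of all tested genes. Ehmt1 (GLP) and Ehmt2 (G9a) form a heterodimer that places dimethylation in euchromatin, Setdb1 trimethylates at repeats, and Suv39h1 and Suv39h2 act in pericentric heterochromatin. Ehmt1 read 62.0, 61.4 and 60.4 CPM at time 0, 58.4, 61.0 and 60.8 CPM at 12 hours, and 34.8, 36.5 and 36.1 CPM at 24 hours, a 1.71-fold drop (−0.77 ± 0.05 SE, adjusted p = 7.1e-09, edgeR). With the length and GC correction it was −0.49 and not called. Its partner Ehmt2 read 247, 235 and 229 CPM at time 0, 231, 233 and 240 CPM at 12 hours, and 251, 275 and 272 CPM at 24 hours. The log2 fold change of Ehmt2 was 0.17 ± 0.05 SE (adjusted p = 0.0060), and −0.06 with total-count scaling.

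Setdb1 read 60.7, 65.0 and 62.6 CPM at time 0, 62.1, 63.1 and 64.3 CPM at 12 hours, and 49.6, 43.6 and 45.7 CPM at 24 hours (1.36-fold lower, −0.44 ± 0.05 SE, adjusted p = 8.1e-06, not called). Suv39h2 read 4.58, 4.89 and 5.55 CPM at time 0, 5.62, 4.56 and 4.69 CPM at 12 hours, and 7.40, 7.80 and 7.08 CPM at 24 hours. All 3 late libraries were above the rest, at 1.48-fold the level of time 0 (0.57 ± 0.11 SE, adjusted p = 0.00041, not called) and 1.52-fold that of 12 hours (0.60 ± 0.11 SE, adjusted p = 0.00023, called). The call against 12 hours was lost with the length and GC correction, and leaving out 1 library moved Suv39h2 across the threshold. Its log2 fold change from time 0 was 0.66 without replicate 3 of time 0 and 0.60 without replicate 3 of 24 hours, and from 12 hours it was 0.54 or 0.56 without replicate 2 or 3 of 12 hours and 0.56 without replicate 2 of 24 hours. Suv39h1 (13.7 ± 0.77 and 14.8 ± 0.69 CPM, 0.12 ± 0.08 SE, −0.10 with total-count scaling) and Setdb2 (6.36 ± 0.68 and 6.40 ± 0.93 CPM, 0.01 ± 0.13 SE, −0.22 with total-count scaling) had overlapping libraries at time 0 and 24 hours. An antisense RNA, Gm14820, covers 14.6% of Suv39h1's exon length.

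The Kdm3 and Kdm4 enzymes remove methyl groups from H3K9, the latter also from H3K36. Kdm3b was called lower. It read 95, 92.7 and 89.0 CPM at time 0, 97.2, 96.2 and 97.6 CPM at 12 hours, and 57.4, 60.3 and 60.9 CPM at 24 hours, 1.55-fold below time 0 (−0.63 ± 0.05 SE, adjusted p = 4.1e-08), or −0.31 and not called with the length and GC correction. An opposite-strand RNA, Gm26538, covers 24.6% of Kdm3b's exon length, and whether strand was used in counting is not stated. Kdm3a, a hypoxia-induced demethylase, went the other way without reaching the fold (137 ± 7.7 and 170 ± 11 CPM, 0.31 ± 0.05 SE, adjusted p = 0.00022, and 0.08 with total-count scaling). Of the Kdm4 genes, Kdm4b had −0.31 ± 0.06 SE (−0.04 with the length and GC correction), Kdm4a −0.14 ± 0.04 SE (0.10 with it), and Kdm4c 0.15 ± 0.06 SE (−0.07 with total-count scaling), and none was called.

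Methylation of H3K36 is placed by Nsd1, Nsd2 and Nsd3, which make dimethylation, and by Setd2, which makes trimethylation behind RNA polymerase. None of the 4 was lower at 24 hours in the TMM-scaled fit, although Nsd2 was at −0.17 with total-count scaling. Setd2 read 80.9, 76.1 and 76.4 CPM at time 0, 76.9, 79.0 and 79.1 CPM at 12 hours, and 96.7, 91.3 and 97.2 CPM at 24 hours (1.22-fold, 0.29 ± 0.05 SE, adjusted p = 6.7e-05, not called, and 0.07 with total-count scaling). Nsd2, an oncogenic enzyme in prostate cancer and myeloma, read 94.4, 94.8 and 96.3 CPM at time 0, 95.4, 93.3 and 100 CPM at 12 hours, and 94.7, 99.6 and 101 CPM at 24 hours. Its groups overlapped, and the log2 fold change was 0.05 ± 0.04 SE (adjusted p = 0.29). Nsd3 was at 111 ± 4.8 CPM at 24 hours, a log2 fold change of 0.25 ± 0.04 SE from time 0 (adjusted p = 0.00017, not called, and 0.03 with total-count scaling).

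Nsd1 (chr13:55209782-55318325 on the plus strand) was called higher at a very low level. It had 50, 49 and 47 counts at time 0, 33, 36 and 24 counts at 12 hours, and 108, 70 and 66 counts at 24 hours. In CPM these were 1.04, 1.05 and 0.861, then 0.722, 0.774 and 0.549, and then 2.65, 1.45 and 1.39, so that the 3 groups did not overlap and replicate 1 of 24 hours stood above the others of its group. The level was 1.85-fold that of time 0 (0.89 ± 0.27 SE, adjusted p = 0.010) and 2.68-fold that of 12 hours (1.42 ± 0.30 SE, adjusted p = 0.00076). The call against time 0 rests on that library: without replicate 1 of 24 hours the log2 fold change was 0.54 and the adjusted p 0.068.

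Kdm2a and Kdm2b remove H3K36 methylation and bind unmethylated CpG islands, and Kdm2b brings a variant Polycomb complex there. Kdm2b read 33.8, 35.2 and 32.4 CPM at time 0, 31.8, 31.8 and 34.2 CPM at 12 hours, and 15.9, 19.0 and 19.9 CPM at 24 hours. With no overlap between the late libraries and the rest, it was 1.85-fold lower than at time 0 (−0.88 ± 0.08 SE, adjusted p = 2.8e-07, edgeR), or −0.45 and not called with the length and GC correction. Kdm2a was not called (145 ± 7.2 and 122 ± 6.1 CPM, −0.25 ± 0.05 SE, adjusted p = 0.00059, and 0.05 with the length and GC correction).

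On H4K20, Kmt5a (SET8) places the first methyl group around mitosis, and Kmt5b and Kmt5c (SUV420H1 and SUV420H2) add the next ones. Kmt5b fell. It read 48.9, 47.6 and 48.0 CPM at time 0, 47.9, 50.6 and 52.1 CPM at 12 hours, and 28.7, 24.8 and 26.9 CPM at 24 hours, 1.8-fold below time 0 (−0.85 ± 0.06 SE, adjusted p = 2.8e-08). Kmt5a read 199, 207 and 204 CPM at time 0, 196, 190 and 190 CPM at 12 hours, and 259, 258 and 268 CPM at 24 hours. The late libraries were above all others, at 1.29-fold the level of time 0 (0.36 ± 0.04 SE, adjusted p = 2.0e-06, not called, and 0.14 with total-count scaling).

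Kmt5c (16.6 ± 3.7 and 11.5 ± 1.5 CPM, −0.53 ± 0.14 SE, adjusted p = 0.0049) was not called with all libraries, and its groups overlapped. It passed 1.5-fold without replicate 1 of time 0 (−0.67) or without replicate 1 of 24 hours (−0.63). Setd4, a SET domain protein whose substrate is unsettled, was low and called. It read 2.66, 3.09 and 3.06 CPM at time 0, 2.65, 2.79 and 2.83 CPM at 12 hours, and 2.13, 1.74 and 1.14 CPM at 24 hours, 1.76-fold below time 0 (−0.82 ± 0.21 SE, adjusted p = 0.0031) and 1.64-fold below 12 hours (−0.71 ± 0.20 SE, −0.50 without replicate 3 of 24 hours). Setd3, the actin histidine methyltransferase, was at 95.8 ± 3.1 and 139 ± 0.25 CPM (1.45-fold, 0.54 ± 0.04 SE, 0.59 without replicate 1 of time 0). Setd5 (−0.23 ± 0.04 SE, −0.07 with the length and GC correction) and Setd6 (0.14 ± 0.07 SE, −0.08 with total-count scaling) were not called. Nor were Kdm7a (0.26 ± 0.08 SE, 0.04 with total-count scaling) and Kdm8 (0.16 ± 0.17 SE, −0.07 with total-count scaling).

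**Figure D4:**
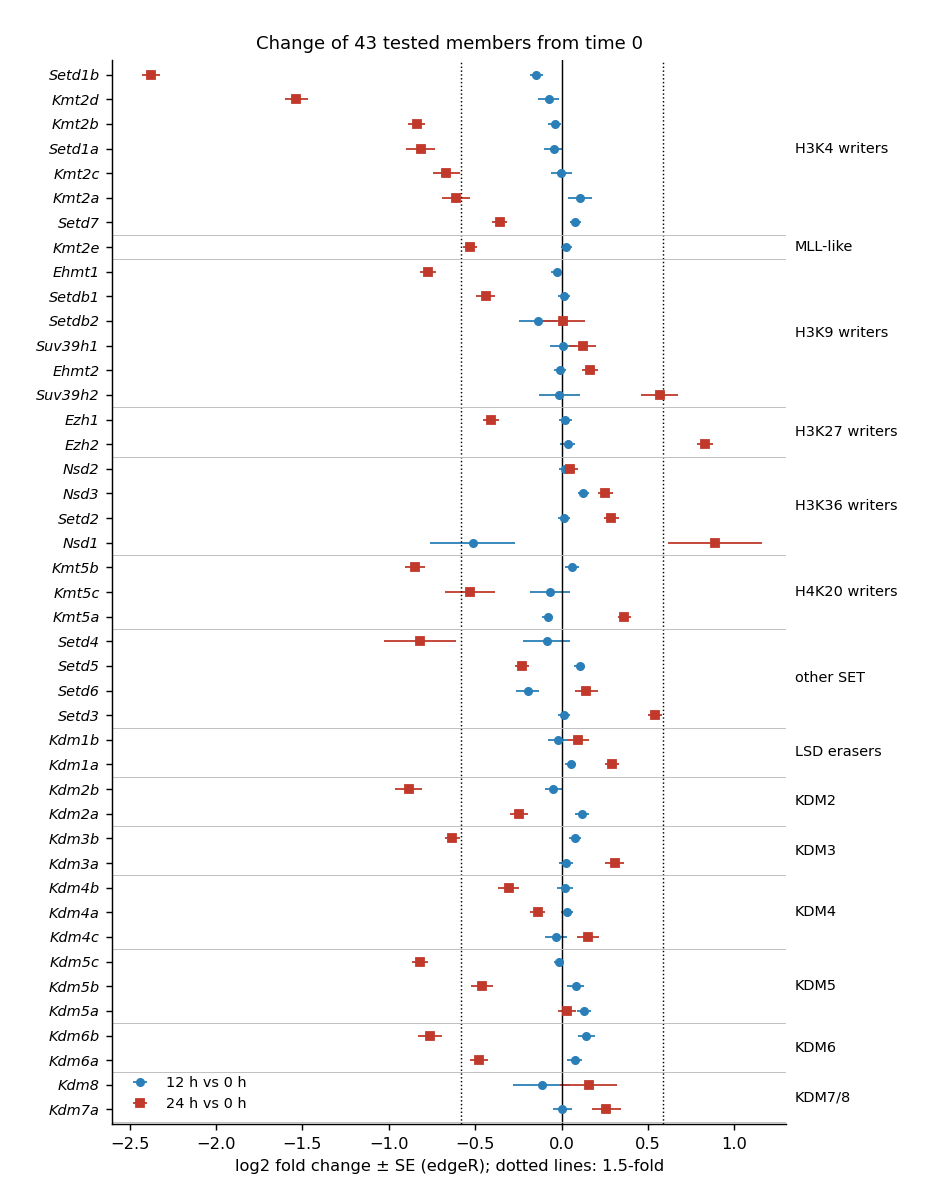
log2 fold change from time 0 with its SE (edgeR) for the 43 tested members, at 12 hours (circles) and at 24 hours (squares), grouped by class, with dotted lines at 1.5-fold. The 12-hour values lie between −0.52 and 0.14, and the 24-hour values spread from −2.38 (Setd1b) to 0.89 (Nsd1).

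By the adjusted p alone 36 of the 43 members differed at 24 hours from time 0, 12 higher and 24 lower. Of all tested genes 70.9% did, 34.4% higher and 36.5% lower. The libraries of 24 hours and time 0 did not overlap for 34 members, 11 higher and 23 lower. That was so for 74% of all tested genes, 35.9% higher and 38% lower. With library totals in place of TMM factors the median of all tested genes moved to −0.24, 21 members were called (2 higher, 19 lower, beside 32.4% of all tested genes, 698 higher and 3008 lower instead of 1374 and 1924), and the members' median was −0.47. The members added to the calls were Ezh1, Kdm5b, Kdm6a, Kmt2e, Kmt5c and Setdb1. By the adjusted p alone 5 members were then higher and 26 lower, beside 20.7% and 51.7% of all tested genes.

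Exon length and base composition moved with the result. The members are long genes, with a median of 8116 bases of annotated exon against 4477 over all tested genes, and 26 of the 43 are in the longest of 4 bins of equal size. Over the whole table the median 24-hour log2 fold change was 0.12 in the shortest bin and −0.11 in the longest, and from the lowest to the highest of 4 bins of GC content it went from 0.14 to −0.12. In the longest bin 11 of the 26 members and 19.7% of all genes were called lower. Of the 8 members in the bin with the highest GC content 5 were called lower, beside 22.1% of the genes there. Among the 313 genes that were in both of these bins 42.5% were called lower and 3.83% higher, with a median of −0.48. Kdm6b, Kmt2b, Kmt2d and Setd1b are the 4 members among them, and all 4 were called lower.

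Within the family, members with more GC had lower values at 24 hours. Across the 43 members, which share the same 6 libraries, the log2 fold change and the GC content had a Pearson r of −0.56 (Spearman rho −0.51), and for log2 exon length r was −0.30 (rho −0.32). Over all 11440 tested genes with an annotation the same r were −0.12 and −0.11. Ehmt2, with the highest GC content of the family (59.8%) and 5489 bases of exon, did not follow this, at 0.17, while Setd1b (59.1%, 12068 bases) was at −2.38.

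With the counts corrected for length and GC content in each library, 6 members were called at 24 hours, Ezh2 and Nsd1 higher and Setd1b, Kmt2d, Kmt5b and Setd4 lower, beside the 26% given above. Against 12 hours 7 were called, beside the 22.5% given above, Ezh2, Nsd1 and Kmt5a higher and Setd1b, Kmt2d, Kmt5b and Kdm6a lower. Of these, Kmt5a (0.61 ± 0.03 SE) and Kdm6a (−0.59 ± 0.05) were not called before the correction. The members' median from time 0 was then −0.07 and that of all tested genes 0.0034. The correction takes out whatever goes with length and GC content, wherever it arose. Corrected values were −1.71 ± 0.05 SE for Setd1b, −0.76 ± 0.06 for Kmt2d, −0.64 ± 0.05 for Kmt5b and 0.75 ± 0.04 for Ezh2. The other SET1/MLL genes kept negative values, Setd1a −0.45 ± 0.07, Kmt2c −0.45 ± 0.06, Kmt2b −0.27 ± 0.04 and Kmt2a −0.19 ± 0.07, all with an adjusted p of 0.05 or less (edgeR) but under 1.5-fold. The 4 called demethylases were also under 1.5-fold after the correction, Kdm5c at −0.50 ± 0.04, Kdm2b at −0.45 ± 0.07, Kdm6b at −0.35 ± 0.05 and Kdm3b at −0.31 ± 0.04, as was Ehmt1 at −0.49 ± 0.05. Kmt5a (0.53 ± 0.04) and Ehmt2 (0.50 ± 0.04) had higher values from time 0 than before the correction and were not called against time 0, and Kdm2a and Kdm4a turned to 0.05 ± 0.05 and 0.10 ± 0.04. The part of length, GC content and TMM factor in the result was not tested.

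**Figure D5:**
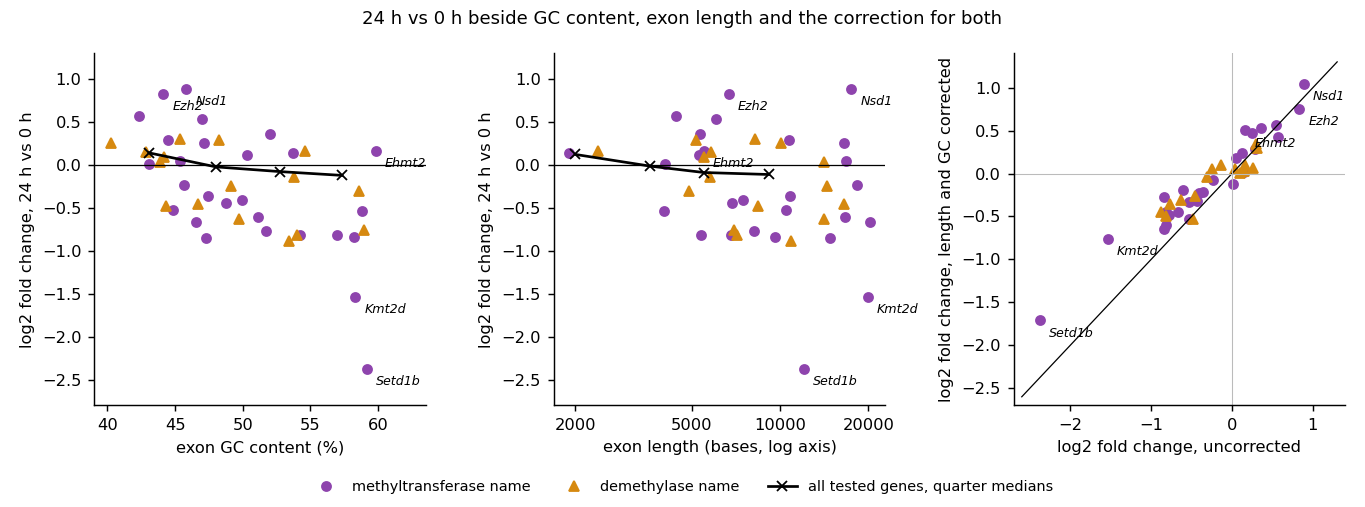
log2 fold change at 24 hours from time 0 of the 43 tested members against the GC content of their exons (left) and their exon length (middle, log axis), with the medians of all tested genes in 4 bins as a black line, and the uncorrected against the length and GC corrected log2 fold change (right, line of equality). Setd1b (−2.38 to −1.71) and Kmt2d (−1.54 to −0.76) stay lowest after the correction, and Ezh2 (0.83 to 0.75) and Nsd1 highest.

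The proteins that work with these enzymes, and the other enzymes of histone modification, were counted in lists that were also set with earlier results known. At 12 hours no gene of these 9 lists was called. At 24 hours the share called ran from 6.67% to 44.4% between the lists, beside 28.8% of all tested genes (12% higher, 16.8% lower). At 24 hours 1 of 13 other COMPASS and MLL complex subunits was called, Hcfc1, a scaffold of these complexes (204 ± 4.9 to 117 ± 3.9 CPM, −0.81 ± 0.04 SE), and the median of the 13 was −0.02. Of 9 PRC2 subunits other than Ezh1 and Ezh2, the cofactors Jarid2 (43 ± 1.2 to 18.8 ± 0.53 CPM, −1.19 ± 0.05 SE) and Aebp2 (162 ± 4.5 to 82.1 ± 4.0 CPM, −0.98 ± 0.05) fell and Lcor, whose locus also encodes a PRC2 accessory protein, rose (26.2 ± 2.6 to 52.0 ± 2.8 CPM, 0.99 ± 0.07). The core subunits Eed and Suz12 were not called.

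Of 9 partners of H3K9 methylation 4 fell, among them Atf7ip, a cofactor of Setdb1 (27.3 ± 1.6 to 13.6 ± 1.8 CPM, −1.01 ± 0.09 SE), Mga (−0.97 ± 0.09) and Wiz, a partner of Ehmt1 and Ehmt2 (−0.74 ± 0.05). Of 10 partners of LSD1 1 fell, Zmym3 (−0.65 ± 0.08). Among 17 tested lysine methyltransferases and demethylases with other names 4 fell and 1 rose. These included the demethylases Riox1 (9.04 ± 0.45 to 3.29 ± 0.030 CPM, −1.46 ± 0.10) and Phf2 (73.1 ± 1.2 to 28 ± 1.8 CPM, −1.38 ± 0.05) and the methyltransferase Prdm2 (−1.05 ± 0.05). The gene that rose was Jmjd1c, a relative of Kdm3a.

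Of 12 histone acetyltransferases 4 fell, with Ep300 (130 ± 4.5 to 55.4 ± 2.6 CPM, −1.23 ± 0.05 SE), Kat6a (−1.14 ± 0.05) and Crebbp (−1.02 ± 0.05) in front, and 1 rose, Hat1, which acetylates new histone H4. Of 15 deacetylases 1 fell (Hdac4, −0.77 ± 0.07), as did 1 of 8 arginine methyltransferases (Prmt6, −0.88 ± 0.12). Of 14 genes of S-adenosylmethionine and 2-oxoglutarate supply 4 fell and 1 rose. Mat2a, which makes S-adenosylmethionine, went from 97.5 ± 11 CPM at time 0 and 91.4 ± 5.2 at 12 hours to 19.8 ± 2.4 CPM at 24 hours (−2.30 ± 0.09 SE). All calls of these lists are by edgeR's test over all tested genes, without the length and GC correction. Their values with it are not given here, and no list was tested against other genes.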

How the data were processed

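RNA-Seq of MyC-CaP cells was measured in 9 libraries, grouped by the time in their labels. Per the labels and the study's methods, the authors prepared TruSeq mRNA libraries, sequenced paired ends on a NovaSeq, trimmed reads with cutadapt, aligned them with STAR to GRCm38.p6 and deposited raw gene counts from featureCounts. The strand setting is not given in the sources used here. Since mRNA reads grow with gene length and libraries can differ in base composition, both can move these counts.

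From the counts, low genes were removed (filterByExpr), TMM factors were computed and genes were tested with edgeR 4.0.16 (quasi-likelihood test, no block) in R 4.3.3, each pair of times in its own fit, with Benjamini-Hochberg adjustment over all tested genes. Calls needed an adjusted p of at most 0.05 and 1.5-fold. DESeq2 1.42.0 and limma 3.58.1 were alternatives, and a loess of span 0.3 in each library corrected for exon length and GC content (GENCODE vM21, 15374 of 15384 genes found). The steps were tested on simulated data. Promoter sequences are from RefSeq.

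The members, classes and lists were chosen with earlier results of these data known. Values in every library are given for members called in any comparison with a mean of at least 1 CPM and for 12 members of interest whatever their values, and the rest are given by means, log2 fold changes and counts. Members of the related lists are named if called, at most 3 by size, and any other gene named there was chosen after its values were seen. Chi-square per degree of freedom between replicates was 3.13 to 15.4, above counting noise, so each library counted as 1 sample. Replicate numbers were not used as pairs in the main fit. Some marker and list genes are not reported here.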

Additional observations from a re-analysis of the deposited data

Results flagged for a closer look

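For 7 members all 3 libraries of 12 hours lay on one side of those of time 0 and all 3 of 24 hours on the other, and the difference between 24 and 12 hours passed the adjusted p of edgeR. That was 16.3% of the 43 tested members, beside 5.47% of the 11271 genes tested in all 3 comparisons. The log2 fold change from 12 to 24 hours was −0.34 for Kdm2a, −0.69 for Kdm3b, −0.31 for Setd5 and −0.42 for Setd7, which were above time 0 at 12 hours. It was 0.47 for Kmt5a, 1.42 for Nsd1 and 0.36 for Setd6, which were below time 0 at 12 hours. Of these, the step from time 0 to 12 hours passed that threshold for Setd5 alone (log2 fold change 0.11 ± 0.03 SE, adjusted p = 0.045). That pass was lost with all 9 libraries in one fit and with the replicate number as a block. Nsd1 rests on 24 to 108 counts per library. For Kdm2a the step from 12 to 24 hours was −0.065 with the length and GC correction and did not pass the adjusted p, and its change from time 0 turned to 0.051. With that correction the same step was −0.38 and not called for Kdm3b, −0.17 for Setd5, −0.29 for Setd7 and 0.20 for Setd6, and with total-count scaling it was 0.24 for Kmt5a and 0.14 for Setd6, of which that of Setd6 did not pass the adjusted p. Setd6 turned to −0.080 from time 0 with total-count scaling.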

How the results depend on the processing

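The adjusted p alone gave 3 members at 12 hours, 36 at 24 hours and 37 between 12 and 24 hours. The length and GC correction gave 6 at 24 hours (26% of all tested genes) and 7 between 12 and 24 hours (22.5%). With the replicate block as well it gave 6 (25.6%) and 7 (22.3%). A test against 1.5-fold itself (glmTreat) gave 10 at 24 hours (18.4% of all tested genes) and 12 between 12 and 24 hours (15.5%), without Kdm3b, Kmt2a, Kmt2c, Nsd1 and Setd4 at 24 hours. At 24 hours upper-quartile factors lost Kmt2a and gained Suv39h2, GC alone lost Kdm3b and Kmt2a and gained Kmt2e, and length alone lost Kdm3b, Kmt2a and Kmt2c and gained Setd3 and Suv39h2. Between 12 and 24 hours Suv39h2 was lost with all 9 libraries in one fit, with total counts, with GC alone and with glmTreat. It was also lost with the length and GC correction, with or without the replicate block. Total counts called 22 members there (29.1% of all tested genes) and GC alone 17 (25.1%). The members' median log2 fold change at 24 hours was −0.47 with total counts, −0.071 with the length and GC correction (−0.072 with the replicate block), −0.19 with GC alone and −0.10 with length alone, and between 12 and 24 hours it was −0.54, −0.068 (−0.068 with the block) and, with length alone, −0.21. Corrections for GC or length alone were added after the data were seen. Leaving out 1 library gave 15 to 16 called members at 24 hours, with medians of −0.29 to −0.22. The share of all tested genes called was not computed for these fits.

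The log2 fold change at 24 hours turned with total counts for Ehmt2 (−0.055), Kdm1b (−0.13), Kdm4c (−0.068), Kdm5a (−0.19), Kdm8 (−0.065), Nsd2 (−0.17), Setd6 (−0.080), Setdb2 (−0.22) and Suv39h1 (−0.10). With the length and GC correction it turned for Kdm2a (0.051, and 0.050 with the block), Kdm4a (0.10, and 0.10) and Setdb2 (−0.13, and −0.13). With GC alone it turned for Kdm5a (−0.064), Nsd2 (−0.0024) and Setdb2 (−0.11), and with limma-voom for Setdb2 (−0.0023), which without 1 library ran from −0.055 to 0.13. None of these members was called, and the cause was not tested.

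Replicate numbers are shared between the groups, and same-numbered libraries correlated by −0.11 to 0.057 in their deviations. No positive value was over 0.1, which cannot show whether same-numbered libraries shared a preparation. With the replicate block 15 members were called at 24 hours (28.4% of all tested genes), 16 between 12 and 24 hours (25.7%) and 0 at 12 hours (1.51%), the same numbers of members as without it.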
